A study of Mus musculus with 8 samples.

Results

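The genes described here are 40 genes of mitosis, the spindle checkpoint and the kinetochore, taken as a named list and matched by symbol to the Ensembl IDs of the deposited tables. All 40 were found among the 50686 genes of the count table, and all 40 were among the 16066 genes that passed the filter on low counts. RNA-seq of mouse bone marrow HSCs (hematopoietic stem cells, strain C57BL/6J) gave their levels and addresses how expression in these cells differs with their size. Large HSCs were the upper 10% of the size distribution by light scatter, Medium HSCs were gated at the mean size plus or minus 10%, Small HSCs were the lower 10%, and All HSCs were left unfractionated, so All can contain cells of each gate. Each group had 2 libraries, numbered 1 and 2, and each library came from 10000 cells. All 4 groups shared the same depletion of lineage-positive cells, the same staining for CD150, CD48, Sca-1 and CD117, and a sort for the G0/1 phase of the cell cycle. The labels give neither the age nor the sex of the mice and no treatment. Whether the 2 libraries of a group came from separate animals is not said either, so p-values here reflect the spread between samples that may differ for technical reasons alone.

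In mitosis, CDK1 bound to cyclins A and B drives the cell into division, and condensed chromosomes attach to spindle microtubules through kinetochores built on the centromere. The spindle checkpoint holds back the anaphase-promoting complex (APC/C) until every kinetochore is attached, after which cyclin B is degraded, sister chromatids separate and the cell is cut apart at cytokinesis. Most of these genes are transcribed mainly from late S phase to mitosis and are repressed in quiescent and early G1 cells by the DREAM complex. HSCs in adult marrow are mostly quiescent, and a G0/1 sort leaves out cells with replicated DNA.

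In these libraries the mitotic genes were all detected, and their summed level was highest in Large HSCs within each replicate number. Gene by gene, Large was the highest group for 35 of the 40 in number 1 and for 38 in number 2. The summed level of the 40 genes was 5086 and 3770 TPM (transcript abundance per length, scaled to a fixed total, which allows genes to be compared) in Large 1 and Large 2. It was 3418 and 1663 TPM in Medium, 4087 and 1723 TPM in Small, and 4272 and 1077 TPM in All. Among the libraries numbered 1, Large 1 was highest and Medium 1 lowest, and among those numbered 2, Large 2 was highest and All 2 lowest. The summed level of Large 2 lay below those of Small 1 and All 1, so on this sum Large overlapped with Small and All and did not overlap with Medium. In bulk RNA of this kind, fewer cells of a type and less RNA per cell cannot be told apart.

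**Figure D1:**
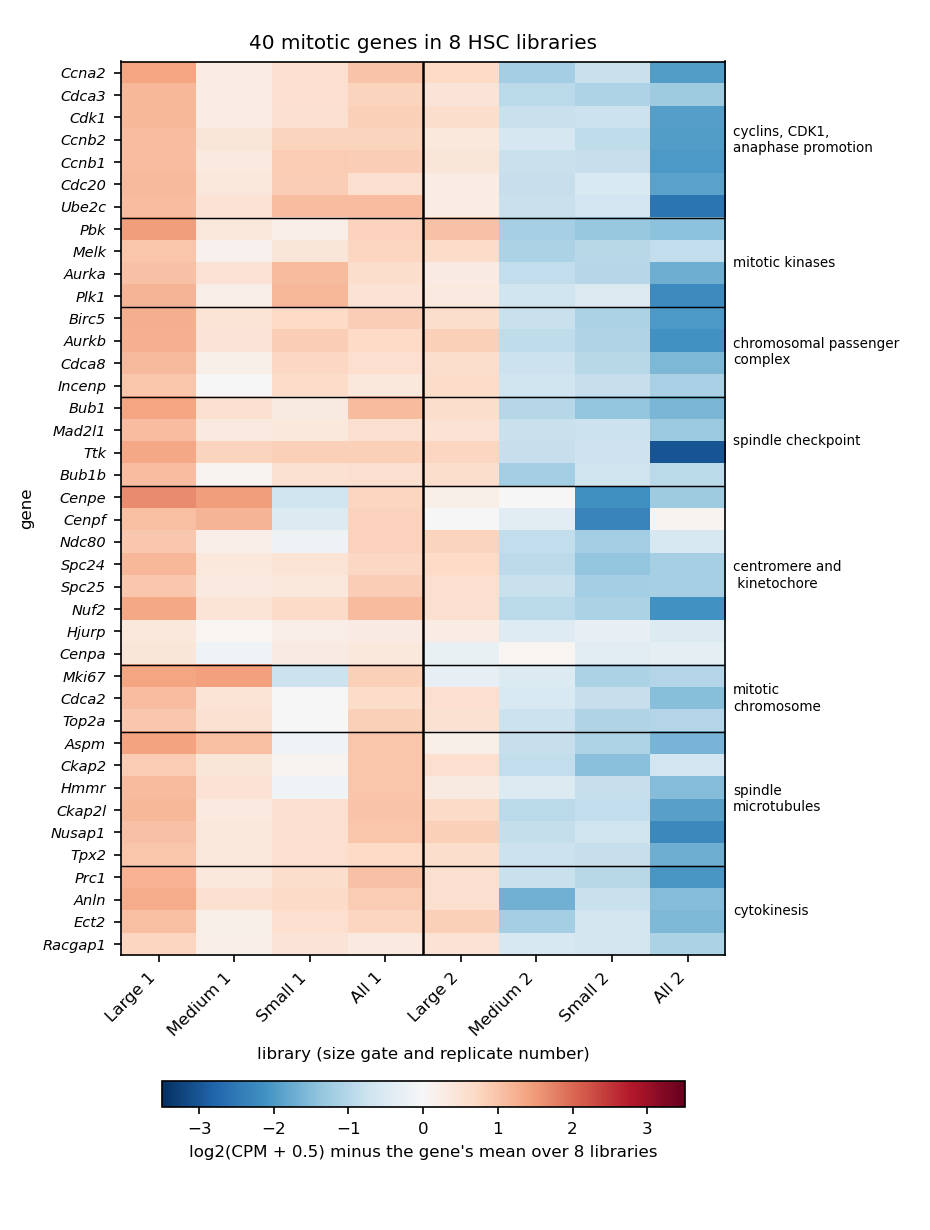
Heat map of the 40 mitotic genes (rows, grouped by role) in the 8 HSC libraries (columns, the 4 libraries numbered 1 and then the 4 numbered 2). The colour is the log2 CPM of a library minus the gene's mean over the 8 libraries; Large 1 holds the highest value of 35 genes and All 2 the lowest of 28.

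The libraries differed by replicate number in every group. The first principal component of all tested genes held 39.5% of the variance and separated the numbers, and All 2 lay farthest out on it. The separation was uneven: Large 2 (0.98) lay closer to Medium 1 (-31.1) than to Medium 2 (56.1), and Large was lowest on this component within each number. For the mitotic genes, all 40 were higher in Large 1 than in Large 2 (median log2 difference 0.59), 39 in Medium 1 than in Medium 2 (1.27), 40 in Small 1 than in Small 2 (1.46) and 40 in All 1 than in All 2 (2.34). Over all tested genes the same medians lay between -0.01 and 0.01. The sizes are therefore compared below also within each number, where a comparison rests on 1 library a group.

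HSC markers were detected in every library, though least in Large 1. The 11 HSC markers (Slamf1, Procr, Mecom, Hlf, Fgd5, Hoxb5, Meis1, Gata2, Tek, Kit and Ly6a) summed to 307 and 895 TPM in Large, 740.2 and 1497 in Medium, 676 and 1749 in Small, and 668.5 and 1841 in All, and none of them was at 0 in any library. Of the 11, 9 were lower in Large than in Small within both replicate numbers (30.9% of all tested genes were) and 0 were higher. A list of 5 primary granule and granulocyte-monocyte progenitor genes (Mpo, Elane, Prtn3, Ctsg and Ms4a3) ran the other way, as the mitotic genes did. It summed to 24784 and 10846 TPM in Large, 9387 and 4304 in Medium, 18270 and 5756 in Small, and 8765 and 479 in All, with none at 0. All 5 were higher in Large than in Small and in Large than in Medium within both numbers. Mature granulocyte genes (S100a8, S100a9, Ngp, Camp, Ltf, Lcn2 and Retnlg) followed the order of the mitotic sums over the sizes in number 2 and not in number 1: they summed to 32633 and 22612 TPM in Large, 33692 and 9042 in Medium, 49816 and 16048 in Small, and 93395 and 7631 in All. Of these 7, 0 were higher in Large than in Small within both numbers and 6 were higher in Large than in Medium, where 32.9% of all tested genes were in each comparison. In Large against Small, 4 of 7 erythroid, 1 of 5 multipotent progenitor, 1 of 5 T and NK cell, and 0 each of 6 megakaryocyte, 5 mast cell and basophil, 6 tested B cell and 5 macrophage genes were higher in Large within both numbers. In Large against Medium the same was true of 5 erythroid, 2 multipotent progenitor, 3 T and NK cell, 3 mast cell and basophil and 1 macrophage gene, and of 0 megakaryocyte and B cell genes. Summed, the T and NK cell genes were also highest in Large within both numbers, although only 1 of the 5 was higher than in Small within both. Their median log2 Large/Small was -0.35 in number 1 and 1.04 in number 2. Their sums were 1845 and 715 TPM in Large, 1012 and 406 in Medium, 1321 and 394 in Small, and 780 and 123 in All. Among the size gates the erythroid sum was also highest in Large, at 2389 and 531 TPM. It was 1659 and 323 TPM in Medium, 2305 and 271 in Small, and 1393 and 531 in All. Listed at 0 were Pax5 (Large 1, Small 1 and All 1), Fcer1a (Small 2), and Ms4a2 and Cd3d (All 2). The part of these other cell types in the differences between mitotic genes was not tested.

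**Figure D2:**
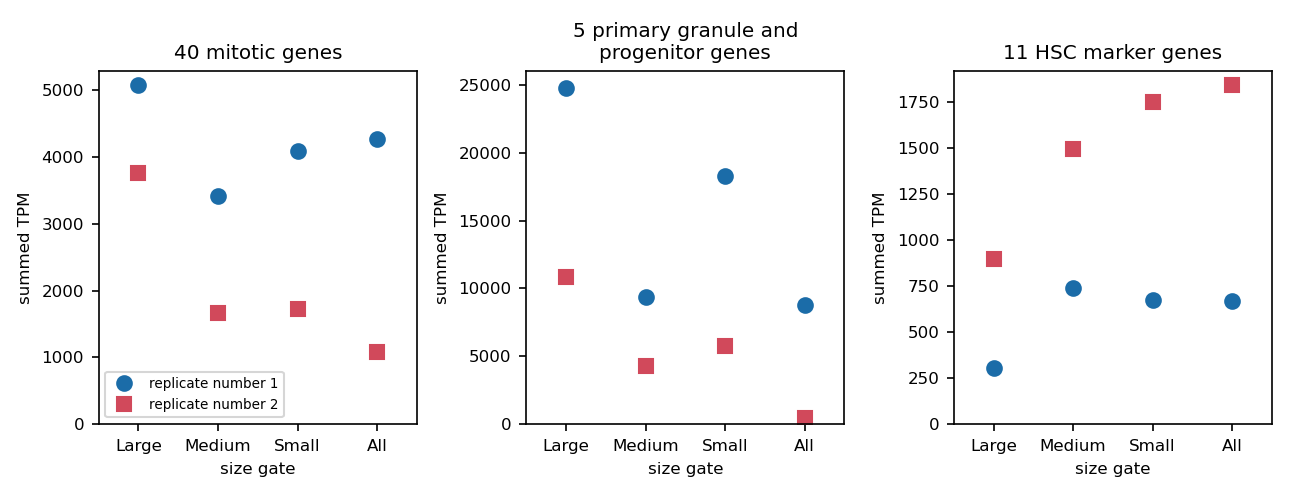
Summed TPM of the 40 mitotic genes, of 5 primary granule and progenitor genes and of 11 HSC marker genes by size gate; each point is 1 library, circles for number 1 and squares for number 2. Within each number the mitotic and the granule sums are highest in Large and the HSC marker sum is lowest there, and between numbers the first 2 sums are higher in number 1 and the third in number 2.

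Mitotic genes made up a larger part of the RNA in Large than in Small HSCs within both replicate numbers for nearly every gene of the set, but no single gene passed the test. Of the 40 genes, 39 were higher in Large within both numbers, and the exception was Aurka, which was lower in Large 1 than in Small 1. Over all tested genes 32.9% were higher in Large within both numbers. On the deposited log2(TPM + 1) values the count was 35 of the 40, against 23.0% of all tested genes, since Plk1, Ube2c, Tpx2 and Hjurp were then also lower in Large 1 than in Small 1. The median log2 difference was 0.57 within number 1 and 1.498 within number 2, where the medians of all tested genes were 0.01 in both. Fitted over all libraries, the log2 differences of the 40 genes ran from 0.12 for Cenpa to 2.49 for Cenpe, with a median of 0.89, against 0.00 for all tested genes. That median was 1.81 without Small 1, 0.58 without Large 1 and 0.35 without Small 2. For 24 of the 40, both Large libraries lay above both Small libraries, as they did for 17.7% of all tested genes. By edgeR's quasi-likelihood test with Benjamini-Hochberg adjustment, 0 of the 40 and 0 of 16066 genes passed an adjusted p of 0.05 (0% called). The smallest adjusted p of any gene was 0.975, and 506 genes (3.15%), among them Cenpe and Ndc80 of the 40, had an unadjusted p under 0.05. DESeq2 called 10 genes (0.0622%) and 0 of the 40, whose smallest adjusted p was 0.813, and limma-voom called 0 genes (smallest adjusted p 0.965). An exact test of 2 libraries against 2 cannot give a two-sided p under 0.333.

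**Figure D3:**
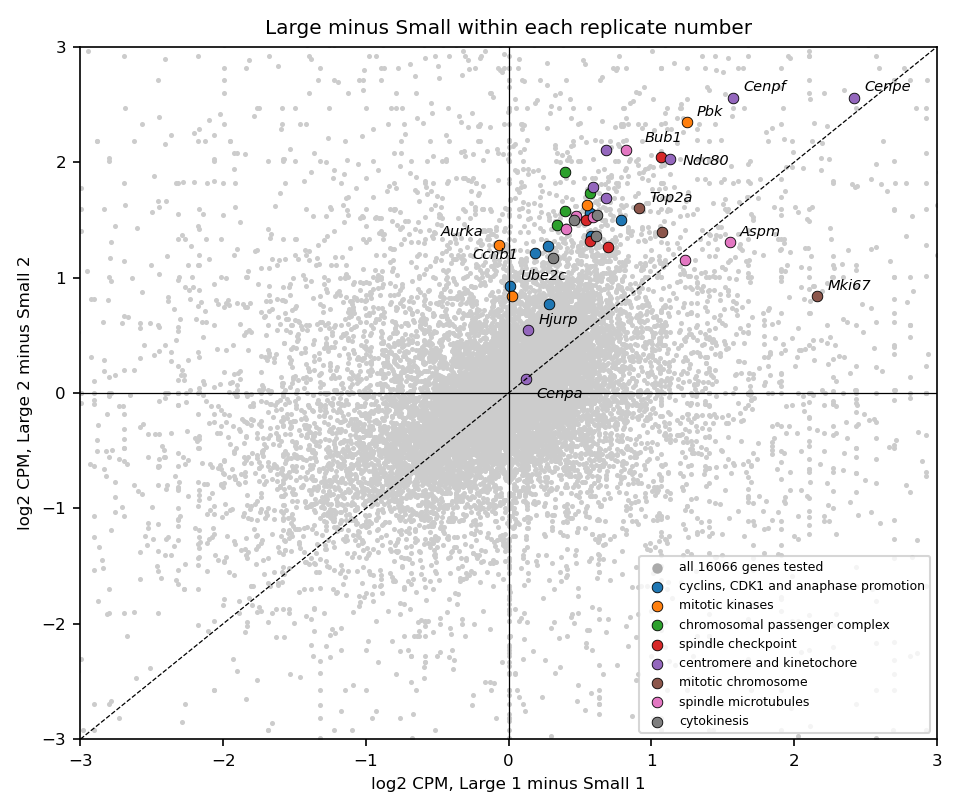
Log2 CPM difference of Large 1 minus Small 1 (horizontal axis) and of Large 2 minus Small 2 (vertical axis); grey points are the tested genes and coloured points the 40 mitotic genes by role. The mitotic genes lie at the upper right apart from Aurka, and most lie above the dashed line of equal differences; 572 other genes beyond 3 in either number are not drawn.

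Most of these genes carry, near their start, short sequence elements known from cell cycle regulation. The cell cycle homology region (CHR), with the letters TTTGAA or TTCGAA, is the site at which the MuvB core of DREAM and of the B-MYB and FOXM1 complexes binds, and CCAAT boxes are bound by NF-Y. RefSeq promoter windows of GRCm38.p6, 250 bases before to 50 after a gene's start, were at hand for 33 of the 40 genes (35 windows, since Ect2 and Prc1 have 2 starts). Both motifs were searched on both strands. A TTTGAA or TTCGAA was present in 28 of the 35 windows (80%), and in 19.2% of all 32851 windows and 14.4% of the 14052 windows of tested genes. A CCAAT was also present in 28 windows (80%), against 37.4% of all windows, and 20 windows (57.1%) held at least 2, against 11.7%. Both motifs occurred together in 26 windows (74.3%), against 7.52% of all windows and 5.94% of those of tested genes, and the windows of Birc5, Mad2l1, Melk, Nuf2 and Nusap1 held neither. The CHR letters had their median position at base 5 after the start, and the CCAAT letters at base -71. The 26 genes with CHR letters had a median log2 Large/Small of 0.85 (0.12 to 1.85), and the 7 without had 0.92 (0.50 to 2.49), so the ranges overlapped. A match describes these letters and not a bound site.

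The stretch from 120 bases before to 30 bases after the start is shown for 7 genes, chosen to cover 6 of the roles below and the extremes of the Large against Small difference (Cenpa lowest, Cenpe highest). The planned set also held Birc5, Bub1b, Mad2l1, Mki67, Plk1 and Prc1, which are not shown. All 7 stretches shown hold a match, whereas the windows of Birc5 and Mad2l1 hold neither motif, so the choice leans to windows with matches. Sequences run 5′ to 3′ on the gene's strand, with each match to the CHR letters or to CCAAT, read on either strand, in capitals. The windows are chr11:99024160-99024309 on the minus strand for Top2a, chr2:164769809-164769958 on the plus strand for Ube2c, chr1:139454653-139454802 on the plus strand for Aspm, chr2:127831830-127831979 on the minus strand for Bub1, chr15:99651627-99651776 on the minus strand for Racgap1, chr5:30666766-30666915 on the plus strand for Cenpa, and chr3:135212443-135212592 on the plus strand for Cenpe.
Top2a: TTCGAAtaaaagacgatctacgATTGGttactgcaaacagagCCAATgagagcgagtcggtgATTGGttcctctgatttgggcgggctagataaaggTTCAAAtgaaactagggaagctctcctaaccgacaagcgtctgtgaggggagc
Ube2c: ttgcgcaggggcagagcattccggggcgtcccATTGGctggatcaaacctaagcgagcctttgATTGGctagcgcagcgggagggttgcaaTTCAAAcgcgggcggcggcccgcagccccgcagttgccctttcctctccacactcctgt
Aspm: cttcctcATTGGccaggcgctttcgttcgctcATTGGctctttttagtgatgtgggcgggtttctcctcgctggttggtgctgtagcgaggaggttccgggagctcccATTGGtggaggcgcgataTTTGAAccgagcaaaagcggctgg
Bub1: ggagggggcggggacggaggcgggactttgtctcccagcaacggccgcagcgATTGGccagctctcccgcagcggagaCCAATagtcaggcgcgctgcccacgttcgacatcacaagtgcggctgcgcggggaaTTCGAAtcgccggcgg
Racgap1: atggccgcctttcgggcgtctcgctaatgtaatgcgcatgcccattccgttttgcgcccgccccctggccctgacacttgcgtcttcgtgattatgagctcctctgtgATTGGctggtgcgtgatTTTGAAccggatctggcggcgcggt
Cenpa: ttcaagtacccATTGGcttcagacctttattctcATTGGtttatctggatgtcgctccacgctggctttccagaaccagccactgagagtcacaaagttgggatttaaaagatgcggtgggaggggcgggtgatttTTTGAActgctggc
Cenpe: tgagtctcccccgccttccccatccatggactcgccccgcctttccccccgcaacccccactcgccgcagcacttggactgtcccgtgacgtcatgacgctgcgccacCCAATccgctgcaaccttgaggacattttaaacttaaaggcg
Aspm, Bub1, Racgap1 and Cenpa carry the CHR letters just after the start, with CCAAT letters upstream on one strand or the other. In Ube2c and Top2a they lie upstream of it, Top2a with a second match at the window's edge. The start meant here is the RefSeq start, which for some genes, Ube2c and Cenpa among them, lies downstream of the gene start printed below. The Cenpe window has a CCAAT and no CHR letters, although Cenpe showed the largest difference between Large and Small.

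Values below are CPM (counts scaled to a common library total after TMM scaling), given for library 1 and then library 2 of each group, with gene positions from GENCODE M21 on GRCm38. Log2 Large/Small values are fitted by edgeR and given with their standard error (SE), and none of the 40 passed the test.

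The 7 genes of the cyclins, CDK1 and anaphase promotion were all higher in Large than in Small within both numbers, by a median log2 of 0.28 in number 1 and 1.28 in number 2. Ube2c (ENSMUSG00000001403, chr2:164769898-164778822), the E2 enzyme that works with the APC/C, had 223 and 126 CPM in Large, 149 and 61.2 in Medium, 221 and 66.1 in Small, and 224 and 17.3 in All. Large 1 and Small 1 were level and Large 2 stood above the other libraries numbered 2, so the groups overlapped and the log2 Large/Small was 0.28 (SE 1.09). Its exons overlap those of Tnnc2 on the other strand over 22.8% of their bases, but Tnnc2 had 7 counts in all. Ccnb1 (ENSMUSG00000041431, chr13:100778650-100786570), cyclin B1, had 458 and 290 CPM in Large, 278 and 126 in Medium, 402 and 125 in Small, and 393 and 53.6 in All. Large 2 lay between Small 1 and Small 2 (log2 Large/Small 0.50, SE 0.93), while both Large libraries lay above both Medium libraries. Ccna2 (ENSMUSG00000027715, chr3:36564865-36572150), cyclin A2, had 419 and 263 CPM in Large, 192 and 70.0 in Medium, 243 and 92.8 in Small, and 320 and 41.4 in All. Here both Large libraries lay above all Medium and Small libraries, with a log2 Large/Small of 1.02 (SE 0.95). The exons of Ccna2 overlap those of Exosc9 on the other strand over 12.5% of their bases, and no source names a strand setting for the counting. The other members, Cdk1, Ccnb2, Cdc20 and Cdca3, were likewise higher in Large within both numbers. Cdk1, the kinase itself, had 246 and 168 CPM in Large, 133 and 64.4 in Medium, 164 and 65.3 in Small, and 198 and 28.9 in All.

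Among the 4 mitotic kinases, Pbk had the largest Large/Small difference, and Plk1 and Aurka the smallest. Pbk (ENSMUSG00000022033, chr14:65805837-65817822), a mitotic MAPKK-like kinase, had 299 and 219 CPM in Large, 142 and 48.2 in Medium, 126 and 43.1 in Small, and 190 and 39.4 in All. Both Large libraries lay above the other 6 libraries, and the log2 Large/Small was 1.62 (SE 0.87). Plk1 (ENSMUSG00000030867, chr7:122159439-122169873), the polo-like kinase of mitotic entry and centrosome maturation, had 118 and 65.4 CPM in Large, 60.5 and 31.8 in Medium, 116 and 36.4 in Small, and 73.8 and 10.8 in All. Large 1 and Small 1 were level, and the log2 Large/Small was 0.26 (SE 0.91), whereas both Large libraries lay above both Medium libraries. Aurka, the centrosomal Aurora kinase, had 133 and 78.9 CPM in Large, 92.7 and 35.5 in Medium, 139 and 32.3 in Small, and 99.1 and 19.5 in All. On the CPM scale it is the only gene of the 40 with a lower value in Large 1 than in Small 1 (log2 difference -0.06), and in number 2 the difference was 1.29. Melk, a kinase of proliferating progenitors, was the fourth and was higher in Large within both numbers.

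All 4 genes of the chromosomal passenger complex, which corrects faulty attachments through Aurora B, were higher in Large than in Small within both numbers (median log2 0.40 and 1.66). Birc5 (ENSMUSG00000017716, chr11:117849251-117855743), which encodes survivin, had the highest mean level of the 40 genes, 210 TPM. It had 299 and 190 CPM in Large, 174 and 72.5 in Medium, 201 and 57.1 in Small, and 227 and 30.6 in All. Large 2 lay just below Small 1, so Large and Small overlapped (log2 Large/Small 0.92, SE 0.97), and both Large libraries lay above both Medium libraries. Incenp (ENSMUSG00000024660, chr19:9872296-9899551), the scaffold of the complex, had 161 and 127 CPM in Large, 80.3 and 50.2 in Medium, 127 and 46.3 in Small, and 106 and 36.9 in All. Large 2 and Small 1 were level, and the log2 Large/Small was 0.73 (SE 0.62). For none of the 4, Aurkb and Cdca8 included, did both Large libraries lie above both Small libraries (17.7% of all tested genes did), and for all 4 they lay above both Medium libraries (18.3% of all tested genes did).

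The spindle checkpoint genes were all higher in Large within both numbers (median log2 0.63 and 1.41). Mad2l1 (ENSMUSG00000029910, chr6:66535390-66547220), which encodes the MAD2 inhibitor of CDC20, had 283 and 191 CPM in Large, 170 and 77.7 in Medium, 175 and 79.4 in Small, and 200 and 54.0 in All. Medium and Small were nearly equal in each number and lay below both Large libraries (log2 Large/Small 0.90, SE 0.69). Bub1 (ENSMUSG00000027379, chr2:127801122-127831865), the kinetochore kinase that recruits other checkpoint proteins, had 74.9 and 44.7 CPM in Large, 42.5 and 14.1 in Medium, 35.7 and 10.7 in Small, and 62.6 and 9.17 in All. Within both numbers it ran in the order Large, Medium, Small, with a log2 Large/Small of 1.37 (SE 0.99). Bub1b (ENSMUSG00000040084, chr2:118598211-118641591), which encodes BUBR1 of the mitotic checkpoint complex, had 288 and 206 CPM in Large, 144 and 58.3 in Medium, 194 and 82.2 in Small, and 197 and 69.3 in All. Here Medium lay below Small within both numbers, and Large above both (log2 Large/Small 0.84, SE 0.66). Ttk, which encodes the MPS1 kinase, had 41.7 and 27.0 CPM in Large, 27.9 and 8.87 in Medium, 28.6 and 9.50 in Small, and 29.0 and 1.52 in All.

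The centromere and kinetochore genes held both extremes of the set. Cenpe (ENSMUSG00000045328, chr3:135212537-135273611), the kinetochore kinesin that carries chromosomes to the spindle equator, had 29.0 and 10.3 CPM in Large, 25.5 and 9.11 in Medium, 5.32 and 1.64 in Small, and 15.4 and 3.49 in All. Both Large and both Medium libraries lay above both Small libraries, Large and Medium were close within each number, and the log2 Large/Small was 2.49 (SE 1.01, unadjusted p 0.0433). Cenpf, a large kinetochore and spindle protein gene, also had Large and Medium above Small, with 21.9 and 10.3 CPM in Large, 24.0 and 7.82 in Medium, 7.26 and 1.64 in Small, and 18.5 and 11.0 in All. Cenpa (ENSMUSG00000029177, chr5:30666777-30674830), the histone H3 variant that marks centromeres, had 254 and 158 CPM in Large, 171 and 198 in Medium, 233 and 145 in Small, and 247 and 149 in All. The groups overlapped throughout. The log2 Large/Small of Cenpa was 0.12 (SE 0.37), and it turned to -0.073 after trends in transcript length and GC content were removed. Hjurp, the chaperone that loads CENP-A onto centromeres, was the next most even in this group, with 518 and 486 CPM in Large, 427 and 294 in Medium, 472 and 333 in Small, and 496 and 290 in All. The 4 genes of the NDC80 complex, which binds microtubules directly (Ndc80, Nuf2, Spc24 and Spc25), were all higher in Large within both numbers. Ndc80 had 63.1 and 56.2 CPM in Large, 37.9 and 17.7 in Medium, 28.7 and 13.6 in Small, and 57.5 and 21.9 in All, with both Large libraries above all Medium and Small libraries (log2 Large/Small 1.49, SE 0.60, unadjusted p 0.0428).

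Genes of the mitotic chromosome were higher in Large than in Small within both numbers, and in 3 of 3 neither Small library reached the lower Large library, as in 17.7% of all tested genes. Top2a (ENSMUSG00000020914, chr11:98992943-99024189), the topoisomerase that untangles sister chromatids, had 400 and 305 CPM in Large, 306 and 123 in Medium, 212 and 100 in Small, and 370 and 102 in All. Large 2 was level with Medium 1, and the log2 Large/Small was 1.18 (SE 0.70). Mki67 (ENSMUSG00000031004, chr7:135689784-135716361), which encodes the proliferation marker Ki-67 that coats mitotic chromosomes, had 60.7 and 18.7 CPM in Large, 63.0 and 16.3 in Medium, 13.5 and 10.4 in Small, and 41.1 and 11.0 in All. Large and Medium were alike within each number, and both lay above Small (log2 Large/Small 1.73, SE 0.90). Cdca2, a chromatin-bound phosphatase regulator, was the other gene of this group.

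All 6 genes of spindle microtubules were higher in Large within both numbers, and in all 6 both Large libraries lay above both Small libraries, as in 17.7% of all tested genes. Tpx2 (ENSMUSG00000027469, chr2:152847964-152895321), the activator of Aurora A that nucleates microtubules, had 176 and 136 CPM in Large, 114 and 52.7 in Medium, 133 and 50.9 in Small, and 146 and 26.8 in All. Large 2 lay just above Small 1 (log2 Large/Small 0.76, SE 0.81). Aspm (ENSMUSG00000033952, chr1:139454772-139494091), a spindle pole protein gene, had 46.4 and 19.99 CPM in Large, 36.7 and 9.67 in Medium, 15.8 and 7.997 in Small, and 34.2 and 5.29 in All. It ran in the order Large, Medium, Small within both numbers (log2 Large/Small 1.48, SE 1.00). Hmmr, Nusap1, Ckap2 and Ckap2l, further spindle-associated protein genes, complete the group.

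The 4 cytokinesis genes were higher in Large within both numbers (median log2 0.54 and 1.43). Prc1 (ENSMUSG00000038943, chr7:80294450-80316259), which bundles the central spindle, had 264 and 166 CPM in Large, 146 and 66.0 in Medium, 172 and 57.0 in Small, and 229 and 27.1 in All. Large 2 lay just below Small 1 (log2 Large/Small 0.91, SE 0.96), and 11.1% of the exon bases of Prc1 overlap Rccd1 on the other strand. Racgap1 (ENSMUSG00000023015, chr15:99620496-99651656), which works at the central spindle, had 193 and 162 CPM in Large, 132 and 77.2 in Medium, 156 and 71.9 in Small, and 145 and 52.3 in All. Both Large libraries lay above the other 6 libraries (log2 Large/Small 0.64, SE 0.56). Ect2, an exchange factor that acts at the cell equator, and Anln, which encodes anillin of the contractile ring, also had higher values in Large within both numbers. In All, both libraries lay below both Large libraries for 7 of the 40 genes, Pbk, Bub1b, Incenp, Aurkb, Cdca8, Racgap1 and Ect2, against 15.8% of all tested genes.

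Most mitotic genes also had higher values in Large than in Medium HSCs within both numbers, and again none passed the test. Of the 40 genes, 37 were higher in Large within both numbers (32.9% of all tested genes were), and the 3 others, Mki67, Cenpf and Cenpa, were split between the numbers. The median log2 difference was 0.73 in number 1 and 1.36 in number 2, and both Large libraries lay above both Medium libraries for 28 of the 40, against 18.3% of all tested genes. The fitted log2 Large/Medium values ran from 0.00 for Mki67 to 1.45 for Pbk, with Ccna2 next at 1.38. Their median was 0.96, and it was 1.65 without Medium 1 and 0.43 without Medium 2. By edgeR's quasi-likelihood test with Benjamini-Hochberg adjustment, 0 of the 40 and 0 of 16066 genes passed (0% called, smallest adjusted p 0.989), while 301 genes (1.87%) and 0 of the 40 had an unadjusted p under 0.05. DESeq2 called 2 genes (0.0124%) and limma-voom 0, with 0 of the 40 in each.

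Medium and Small HSCs did not separate on the mitotic genes as a set. Of the 40, 11 were higher in Medium within both numbers (30.1% of all tested genes were), 14 were lower within both (29.3% of all tested genes were), and 15 were lower in Medium 1 than in Small 1 and higher in Medium 2 than in Small 2. The median log2 difference was -0.21 in number 1 and 0.16 in number 2. The fitted median was -0.13, and leaving out 1 library moved it to -0.81 without Medium 1, -0.69 without Small 2, 0.34 without Medium 2 and 0.88 without Small 1. By role, the 3 mitotic chromosome genes were higher in Medium within both numbers, and of the 7 genes of the cyclins, CDK1 and anaphase promotion 4 were lower and 0 higher. Both Medium libraries lay above both Small libraries for Mki67, Cenpe and Cenpf, that is for 3 of the 40 and for 16.6% of all tested genes. By edgeR's test 0 of the 40 and 0 of all genes passed the adjusted threshold (0% called, smallest adjusted p 1), while 695 genes (4.33%) and 0 of the 40 had an unadjusted p under 0.05. DESeq2 called 42 genes (0.261%) and limma-voom 0, with 0 of the 40 in each. In number 1 the order Large, Medium, Small held for 9 of the 40 genes, and in number 2 for 25. The share of all tested genes in this order was not counted, so these 2 numbers are given as a description only.

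**Figure D4:**
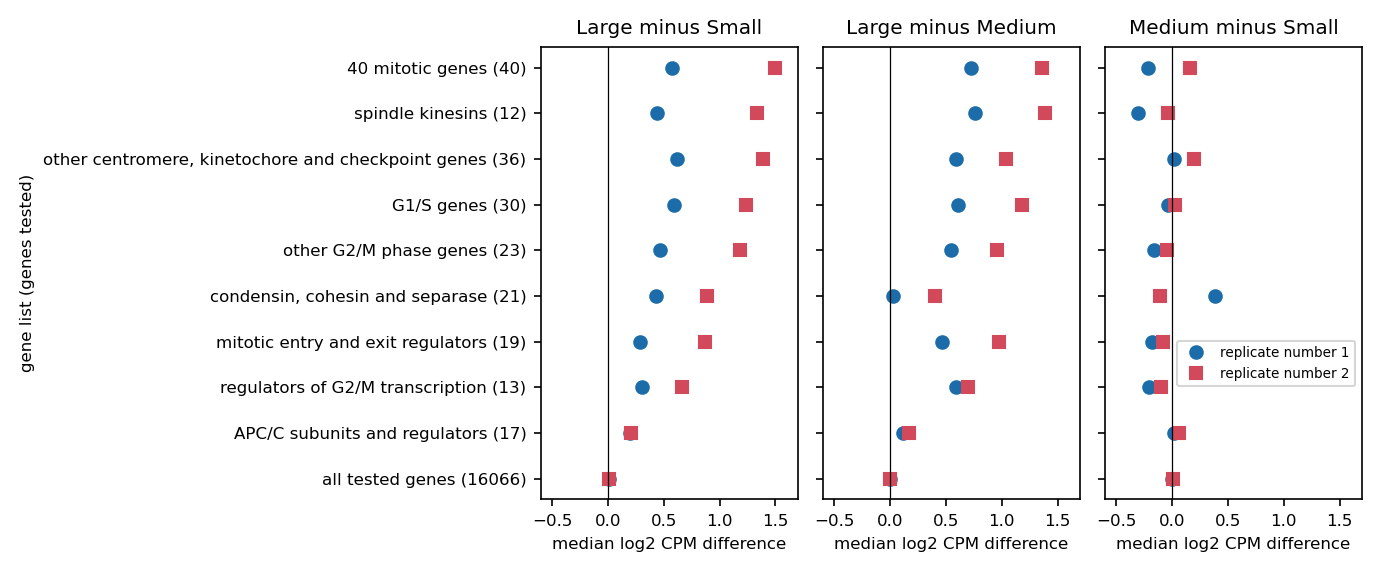
Median log2 CPM difference of the 40 mitotic genes and of 8 related gene lists within replicate number 1 (circles) and number 2 (squares), for Large minus Small, Large minus Medium and Medium minus Small; the bottom row is all 16066 tested genes, whose medians lie at about 0. The lists lie to the right of 0 where Large is one of the sizes compared, the least in Large minus Small being the APC/C subunits and in Large minus Medium the condensin, cohesin and separase genes in number 1 (0.025) and the APC/C subunits in number 2 (0.17).

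Against unfractionated HSCs the result depended on the replicate number. Large was above All within both numbers for 37 of the 40 genes (31.2% of all tested genes were), with a median log2 difference of 0.35 in number 1 and 2.11 in number 2, where All 2 held the lowest value of 28 genes. The exceptions were Cenpf, Ube2c and Ckap2. The fitted median of 0.83 was 2.54 without All 1, 0.46 without Large 1 and 0.068 without All 2. Small was above All within both numbers for 9 genes (26.7% of all tested genes were) and below for 10 (31.3% of all tested genes were), and Medium was above for 3 (24.6% of all tested genes were) and below for 5 (24.9% of all tested genes were). For Medium against All, 31 of the 40 were lower in number 1 and higher in number 2. The fitted medians were -0.13 for Medium against All (1.68 without All 1, 0.36 without Medium 2, and -0.87 without either Medium 1 or All 2) and -0.06 for Small against All (1.33 without All 1, 0.43 without Small 2, -0.81 without All 2 and -0.94 without Small 1). These 3 comparisons share the All libraries. By edgeR's test no gene passed in any of the 3 (0% called, smallest adjusted p 0.885 for Large against All and 1 for the other two), with 504 genes (3.14%) for Large, 262 (1.63%) for Medium and 637 (3.96%) for Small at an unadjusted p under 0.05 and none of the 40 among them. DESeq2 called 8 genes (0.0498%) for Large, 6 (0.0373%) for Medium and 20 (0.124%) for Small, with 0 of the 40 in each.

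The genes differed among themselves by transcript length and GC content, most plainly in number 1. The 4 with the longest coding transcripts are Cenpf (11130 bases), Mki67 (10061), Aspm (9867) and Cenpe (7910). In number 1 their log2 Medium/Small was 1.704, 2.21, 1.21 and 2.23 in that order of genes, whereas of the 36 others 7 were positive, the highest of them at 0.63. Of these 4, in number 2 Cenpe and Cenpf remained at 2.38 and 2.17 and Mki67 and Aspm were at 0.63 and 0.27. Over the 6 members of at least 5000 bases, the median log2 Large/Small was 1.56 in number 1 and 1.46 in number 2, and the same medians over all 2776 tested genes of that length were -0.04 and -0.17. Mad2l1, with a longest coding transcript of 7557 bases, was an exception, with a log2 Medium/Small of -0.04 in number 1. Which transcripts of Mad2l1, Cenpf or the other genes these cells used is not known. Cenpf had a mean of 12.8 CPM and 9.34 TPM, and Mki67 29.3 CPM and 4.32 TPM. The deposited TPM therefore treats Cenpf as shorter than Mki67, although its longest coding transcript is longer. Across the 40 genes, the log2 Large/Small within number 1 had a Pearson correlation of 0.63 and a Spearman correlation of 0.48 with log2 transcript length, and within number 2 of 0.10 and -0.06. With log2 mean TPM, the correlations were -0.71 and -0.53 in number 1 and -0.34 and -0.25 in number 2, so the genes with low levels tended to have the larger Large/Small differences. The 4 genes with the longest coding transcripts are also the 4 with the lowest mean TPM, and TPM is scaled by length. With the GC percent of the transcript, log2 Large/Small had a Pearson correlation of -0.49 and a Spearman correlation of -0.59 in number 1. In number 2 these were -0.38 and -0.35, so by rank GC content was the closer correlate than length in both numbers. Length, level and GC content were therefore not told apart here. Large/Medium ran the other way in number 1, with Pearson correlations of -0.59 with length and 0.48 with mean TPM (Spearman -0.33 and 0.26), and was weaker in number 2 (Pearson -0.25 and 0.12). The 6 members of at least 5000 bases had a median log2 Large/Medium of 0.26 in number 1 and 0.72 in number 2, below the 0.73 and 1.36 of all 40. All 40 points come from the same libraries, and these values describe them without a test. After trends in length and GC content over all genes were removed from each library, the correlation with length in number 1 was again 0.63 (Spearman 0.46), and the log2 Medium/Small of Cenpe in number 1 was 1.81. The correlation of log2 Large/Small with GC percent was then -0.22 (Spearman -0.18) in number 1 and -0.35 (Spearman -0.37) in number 2. The part of transcript length or GC content in the size differences was not tested.

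**Figure D5:**
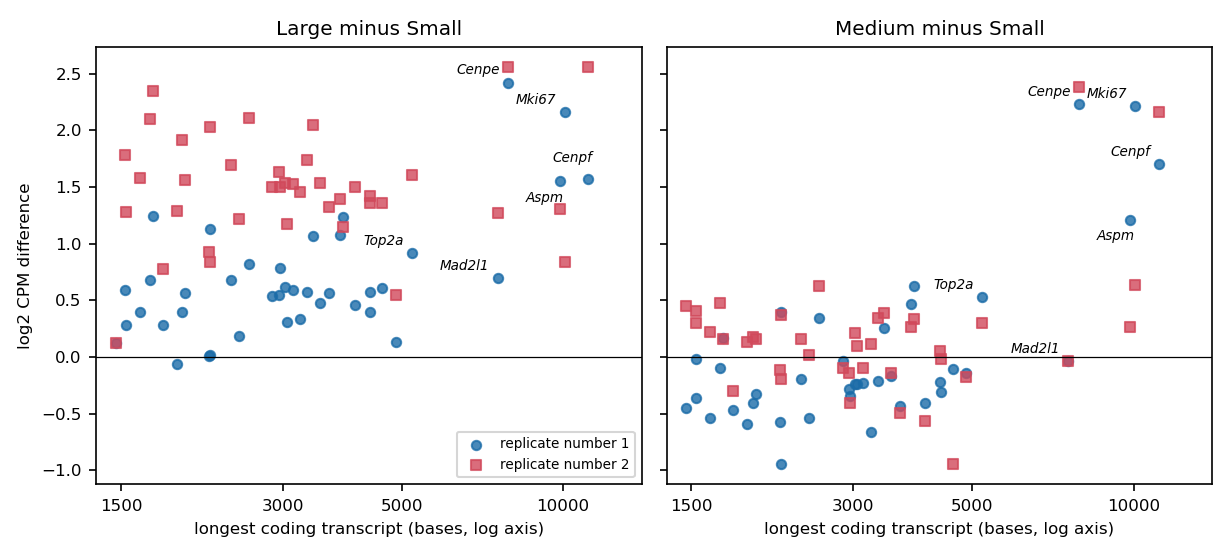
Log2 CPM difference of each of the 40 genes against the length of its longest coding transcript (log axis), for Large minus Small and Medium minus Small; circles are number 1 and squares number 2. In Medium minus Small, Cenpe, Mki67, Cenpf and Aspm stand above the other genes in number 1, at 1.21 to 2.23.

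The level of the 40 genes spanned a wide range on the per-length scale. Birc5 (mean 210 TPM over the 8 libraries), Ube2c (202) and Ccnb1 (199) were highest, followed by Cdk1 (194) and Cenpa (190), and Cenpe (2.20), Mki67 (4.32), Aspm (4.81) and Cenpf (9.34) were lowest. Birc5 ran from 48.3 to 366 TPM over the libraries and Ube2c from 29.3 to 332, so their spreads overlap and their order is not separated. Cenpa was steadier, from 117 to 255 TPM.

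Other genes of the mitotic programme, its regulators and the preceding G1/S step were grouped into 8 lists. In Large against Small, none of these lists had a gene that passed edgeR's adjusted threshold. The 36 other centromere, kinetochore and checkpoint genes were close to the 40 in their differences: 33 were higher in Large than in Small within both numbers (32.9% of all tested genes were) and 1 was lower (30.9%), with a median log2 of 0.62 in number 1 and 1.39 in number 2. Knl1, the kinetochore scaffold for BUB1, had 37.5 and 17.4 CPM in Large, 33.3 and 10.8 in Medium, 8.56 and 2.86 in Small, and 21.9 and 9.23 in All (log2 Large/Small 2.26, SE 0.83), with Large and Medium above Small as for Cenpe. Cenpb, a centromere DNA-binding protein gene, ran the other way, with 11.4 and 15.3 CPM in Large, 16.7 and 18.8 in Medium, 18.6 and 26.2 in Small, and 16.5 and 12.8 in All (log2 Large/Small -0.75, SE 0.35). Among the 12 spindle kinesins, 12 were higher in Large within both numbers. Their extremes were Kif14 (17.7 and 12.2 CPM in Large, 6.03 and 4.00 in Small) and Kif18b (66.3 and 53.5 CPM in Large, 66.1 and 24.1 in Small).

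Of the 21 condensin, cohesin and separase genes, 16 were higher in Large than in Small within both numbers and 2 lower. Smc4, a condensin ATPase, had 81.0 and 42.8 CPM in Large, 85.9 and 34.5 in Medium, 18.9 and 15.0 in Small, and 68.4 and 44.8 in All. Both Large and both Medium libraries lay above both Small libraries (log2 Large/Small 1.87, SE 0.52). Mau2, of the cohesin loader, was lowest in the list, at 95.5 and 127 CPM in Large and 157 and 159 in Small. Of the 19 regulators of mitotic entry and exit, 14 were higher in Large within both numbers and 3 lower. Mastl, the Greatwall kinase, had 14.1 and 8.94 CPM in Large and 7.52 and 1.36 in Small. Cdc14a, a phosphatase gene, had 33.5 and 26.7 CPM in Large and 38.6 and 44.3 in Small.

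Of the 13 regulators of G2/M transcription, 9 were higher in Large than in Small within both numbers and 0 lower, with a median log2 of 0.30 in number 1 and 0.66 in number 2. Foxm1, the forkhead activator of G2/M genes, had 54.8 and 50.3 CPM in Large, 33.1 and 16.6 in Medium, 42.5 and 17.5 in Small, and 47.1 and 10.7 in All. Mybl2, which encodes B-MYB, had 121 and 99.1 CPM in Large, 61.0 and 17.2 in Medium, 90.8 and 37.9 in Small, and 77.2 and 14.2 in All. For both genes the 2 Large libraries lay above the other 6 libraries, with log2 Large/Small of 0.81 (SE 0.74) for Foxm1 and 0.77 (SE 0.88) for Mybl2. The repressor E2f7 had 30.5 and 31.4 CPM in Large and 18.6 and 10.6 in Small. Nfya, a subunit of the CCAAT-binding factor, had 16.4 and 20.4 CPM in Large and 16.1 and 26.8 in Small, so the groups overlapped.

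The 17 APC/C subunits and regulators had the smallest Large/Small medians of the 8 lists, at log2 0.20 in both numbers, 10 higher within both and 1 lower. Fbxo5, which encodes the APC/C inhibitor EMI1, had 72.8 and 39.0 CPM in Large, 42.1 and 10.5 in Medium, 45.6 and 13.7 in Small, and 53.6 and 15.3 in All. Anapc2, a catalytic subunit, was the 1 lower gene, at 97.4 and 124 CPM in Large and 124 and 145 in Small. Of the 23 other G2/M phase genes, 19 were higher within both numbers and 0 lower. Esco2, a cohesin acetyltransferase, had 31.7 and 19.8 CPM in Large and 7.46 and 2.21 in Small, and Kpna2, an importin, 568 and 337 in Large and 601 and 222 in Small.

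Genes of the preceding cell cycle step stood beside the mitotic genes. All 30 genes of the G1/S list were higher in Large than in Small within both numbers, and for 27 of them both Large libraries lay above both Small libraries, against 17.7% of all tested genes. Ccne2, cyclin E2, had 77.2 and 40.05 CPM in Large, 43.5 and 13.1 in Medium, 35.3 and 12.4 in Small, and 52.9 and 13.6 in All. Mcm2, of the replicative helicase, differed least, with 454 and 482 CPM in Large, 356 and 222 in Medium, 451 and 292 in Small, and 330 and 201 in All. The G1/S list summed to 6460 and 5928 TPM in Large, 4640 and 2780 in Medium, 4872 and 3002 in Small, and 4711 and 2603 in All, so on this sum, unlike on that of the 40 mitotic genes, both Large libraries lay above the other 6.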

How the data were processed

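RNA-seq libraries of size-sorted HSCs were made with a low-input cDNA kit, per the labels' protocols, and each title gives the group and number of its sample. STAR 2.5.3a, RSEM 1.3.0, SAMtools 1.3 and the build mm10 are named in the submitters' processing notes. The authors deposited estimated counts by gene, in whole numbers and without scaling between libraries. The authors also deposited log2(TPM + 1) values, from which TPM was recovered. The annotation release and the use of strand in counting are not given in the sources used here. Libraries held between 13698362 (Small 2) and 16838448 (All 2) counts. Of 50686 gene IDs, 50462 had a symbol; names and coordinates are those of GENCODE M21.

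Counts were tested with edgeR 4.0.16 in R 4.3.3 (quasi-likelihood, robust, TMM scaling, filterByExpr with a minimum count of 10, group as the only term, 8 libraries, 4 residual degrees of freedom). P-values are two-sided and adjusted by the Benjamini-Hochberg method over 16066 genes, with a threshold of 0.05. Differences within a replicate number are of log2 CPM with a prior count of 2. CPM and TPM are relative to the other RNA of a library, not amounts per cell. The edgeR fit was run on simulated data with the same spread for every gene and no difference between replicate numbers. That check therefore does not cover the spread seen in these libraries. Alternatives used limma 3.58.1 and DESeq2 1.42.0, other scaling and filters, the replicate number as a block, removal of length and GC trends, and leaving out each library.

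The 40 genes, their roles, the 8 related lists and the marker lists were chosen with earlier results of these data known, so no list was tested. In each role the genes with the highest mean TPM and with the largest and smallest log2 Large/Small are given in every library, with the 3 highest in TPM of all. In each related list the genes with the largest and smallest log2 Large/Small at a mean of at least 5 CPM are named, with Foxm1 and Mybl2. Other genes were named after their values were seen. Promoter sequences are from RefSeq. One planned HSC marker is not reported here. Drug-treated HSCs that the series design mentions were not analysed here.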

Additional observations from a re-analysis of the deposited data

Results flagged for a closer look

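In 3 comparisons the median difference of the 40 mitotic genes had opposite signs in the 2 replicate numbers. The median log2 CPM difference of Medium minus Small was -0.21 in number 1 and 0.16 in number 2. For Small minus All it was -0.22 in number 1 and 0.66 in number 2, and for Medium minus All it was -0.39 in number 1 and 0.79 in number 2. Each number holds 1 library a group, so the difference between the numbers was not tested.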

How the results depend on the processing

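The median log2 differences of the 40 genes were compared between settings. These were other scaling, filters, tests and units, removal of length and GC trends, and fits on 4 libraries. Under each, the medians moved by less than the SD of the 2 medians within numbers 1 and 2. This SD is wide, since the 2 medians were 0.57 and 1.498 for Large against Small and 0.35 and 2.11 for Large against All. A change of sign can stay within it. With the replicate number as a block the fitted medians were 1.14 for Large against Small, 1.11 for Large against Medium, -0.07 for Medium against Small, 0.13 for Small against All, 0.12 for Medium against All and 1.22 for Large against All. The block called 0 genes in each, while 21, 21, 3, 4, 1 and 25 of the 40 genes then had an unadjusted p under 0.05, in that order, as did 17.4%, 14.8%, 12.5%, 11.5%, 5.26% and 19.8% of all tested genes. Differences between numbers 1 and 2 correlated between groups at 0.36 to 0.44 over 16066 genes, but the labels do not say that a number marks a shared animal or day. Leaving out each library in turn gave medians of 0.35 to 1.81 for Large against Small, 0.43 to 1.65 for Large against Medium, 0.068 to 2.54 for Large against All, -0.81 to 0.88 for Medium against Small, -0.87 to 1.68 for Medium against All and -0.94 to 1.33 for Small against All, and 0 called genes in all. Without Small 2 the log2 Large/Small of Cenpa, Aurka, Plk1, Ccnb1, Ccnb2, Cdc20 and Ube2c was below 0, and their ranges over these fits were -0.26 to 0.51, -0.39 to 1.72, -0.34 to 1.33, -0.11 to 1.59, -0.025 to 1.67, -0.10 to 1.29 and -0.34 to 1.40.

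In place of 0 called genes, no filter on low counts gave 55 for Large against Small, 58 for Large against Medium, 73 for Medium against Small, 69 for Small against All, 48 for Medium against All and 121 for Large against All. These included Pbk for Large against Small (log2 1.60), Pbk, Ccna2 and Bub1b for Large against Medium, and Mki67 for Medium against Small. DESeq2 gave 10, 2, 42, 20, 6 and 8 genes in the same order, none of them among the 40. Limma on log2(TPM + 1) gave 1 each for Large against Small, Large against Medium and Large against All, and 11 for Medium against All without a filter. Removal of length and GC trends with the block gave 18 for Large against Small, 7 for Large against Medium (Bub1b among them) and 224 for Large against All (with Bub1b, Racgap1 and Incenp), and -0.083 for Cenpa in Large against Small, against -0.073 without the block. The cause was not tested. With those trends removed, 14 of the 40 in place of 9 were higher in Small than in All within both numbers, and on log2(TPM + 1) 6 in place of 3 were higher in Medium than in All. Depth limits Cenpe and Cenpf most among the 40 genes, each with a lowest count of 23 in a library.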
